A study of Mus musculus with 2 samples.

Results

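The Sox and forkhead genes of the mouse were examined in maps of open chromatin from LβT2 cells, an immortalized mouse gonadotrope line. Members were the protein-coding genes of GENCODE vM21 (GRCm38) whose symbol is Sox with a number, or Fox with 1 letter and a number. Foxl2 was not counted among them. The rule found 62 genes, 19 Sox and 43 forkhead genes, of 21938 protein-coding genes on the assembled chromosomes. Chromatin was assayed by ATAC-seq, in which a transposase inserts sequencing adapters where DNA is open, in 2 replicate samples of 1 group. Cells of passage 21 received GnRH as pulses of 2 nM, spaced 2 h apart and 4 in number, and were collected 45 min after the last pulse, at 6 h 45 min, with 4500 cells in each reaction. Neither sample went without GnRH, so no value here speaks of the effect of the hormone. The study describes independent samples and libraries, but the labels do not say that they came from separate cultures, and the spread between the replicates may be technical.

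Sox proteins bind the minor groove of DNA through an HMG box and bend it. Forkhead proteins bind through a winged-helix domain, and some of them, such as the Foxa factors, can bind DNA that is still wrapped in nucleosomes. Members of both families set cell identity, and several are known from the pituitary: Sox2 marks its progenitors, Sox3 is needed in the hypothalamus and pituitary, and Foxo1 is a known repressor of gonadotropin genes. The deposited values were lists of peaks, 1 list per replicate. A peak carries a summit, the fold of tags there over the background of the list, and −log10 q, which rises with the number of tags there. A gene had a promoter peak when a summit lay within 1 kb of any of its annotated transcription start sites (TSSs).

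Depth was read from the lists themselves. The fold and the p-value of a peak fix the number of tags at its summit, and the expected number was 3.05 tags in replicate 1 and 3.54 in replicate 2. The lowest peak held 10 and 11 tags and the median peak 14 and 16. A promoter without a peak is one where no peak was detectable at this depth and with the background set in the peak calling, and a peak present in few cells cannot be told apart from a weak peak in all cells. Among gonadotrope markers, Lhb, Cga and Gnrhr had a promoter peak in both lists, Nr5a1 had one in replicate 2, and Fshb had none. Of 6 markers of other pituitary lineages (Gh, Prl, Tshb, Pomc, Pou1f1 and Tbx19), 0 had a promoter peak in either list. No marker of either kind had a 5′ end rich in CpG, a measure defined below. Of all coding genes without such a 5′ end, 17.1% had a promoter peak in replicate 1 and 22.9% in replicate 2.

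The sequences under the strongest promoter peaks of the family are shown first, because the values that follow refer to them. Each holds the replicate 2 summit with the 50 bp on either side (GRCm38), 5′ to 3′ on the strand of the gene, for the 6 members with the highest mean −log10 q. Capitals mark matches, on either strand, to 7 motifs. The forkhead motif was spelled TGTTTAC. The SOX motif was spelled ACAATG, with ACAAAG as its other form. The cyclic AMP response element (CRE) was spelled TGACGTCA. The GC box was spelled GGGCGG, the CCAAT box by the letters of its name, the AP1 motif TGACTCA on either strand, and the EGR motif GCGTGGGCG.
Sox12 promoter, chr2:152398871-152398971, minus strand: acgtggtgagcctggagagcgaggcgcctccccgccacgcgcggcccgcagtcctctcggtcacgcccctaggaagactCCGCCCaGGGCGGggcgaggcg
Foxo6 promoter, chr4:120287997-120288097, minus strand: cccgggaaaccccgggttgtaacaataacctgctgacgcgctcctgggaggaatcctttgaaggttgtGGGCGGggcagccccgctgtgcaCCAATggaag
Foxa3 promoter, chr7:19024187-19024287, minus strand: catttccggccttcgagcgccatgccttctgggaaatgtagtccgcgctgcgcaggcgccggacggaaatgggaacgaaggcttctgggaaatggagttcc
Foxn2 promoter, chr17:88440404-88440504, plus strand: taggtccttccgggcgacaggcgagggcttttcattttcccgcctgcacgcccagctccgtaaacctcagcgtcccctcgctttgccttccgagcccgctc
Foxd2 promoter, chr4:114908998-114909098, minus strand: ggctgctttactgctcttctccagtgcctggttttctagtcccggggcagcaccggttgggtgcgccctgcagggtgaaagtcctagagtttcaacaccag
Foxp4 promoter, chr17:47924794-47924894, minus strand: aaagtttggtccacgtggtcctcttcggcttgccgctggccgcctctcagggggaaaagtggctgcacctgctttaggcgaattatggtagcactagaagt
Within these windows, the Sox12 sequence held 2 GC boxes and the Foxo6 sequence 1 GC box and 1 CCAAT box. The other 4 sequences held none of the letters searched for. The Sox12 summit was the richest in CpG, with 14 CpG and 76.2% G and C, whereas the Foxd2 summit held 3 CpG.

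For contrast, the same length around the annotated 5′ end is shown for Sox2 and Foxo1, which had no promoter peak in either list. These were chosen after their values were seen.
Sox2 5′ end, chr3:34650355-34650455, plus strand: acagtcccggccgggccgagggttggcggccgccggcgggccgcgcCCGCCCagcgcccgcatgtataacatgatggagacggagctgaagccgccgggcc
Foxo1 5′ end, chr3:52268286-52268386, plus strand: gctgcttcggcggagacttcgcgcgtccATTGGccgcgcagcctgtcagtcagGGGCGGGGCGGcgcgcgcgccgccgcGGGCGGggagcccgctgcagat
The Sox2 sequence held 15 CpG and 1 GC box, and the Foxo1 sequence 18 CpG, 3 GC boxes, the first of them overlapping the next, and 1 CCAAT box. Both 5′ ends thus carried at least as many CpG as the Sox12 summit, and no summit lay within 1 kb of either TSS.

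Of the 62 members, 9 had a promoter peak in replicate 1, or 14.5%, against 32.3% of all protein-coding genes. In replicate 2 the count was 18, or 29.0%, against 44.4%. A peak in both lists was found for 8 members, or 12.9%, against 30.8%, and a peak in at least 1 list for 19, or 30.6%, against 45.9%. The share was thus below that of all coding genes in each list, and 43 members had no promoter peak in either. With 1 group of samples there was no contrast to test, and these shares are a description. High peaks were few: at −log10 q of at least 10, replicate 1 held 1 member (1.61%, against 11.1% of coding genes) and replicate 2 held 7 (11.3%, against 26.7%). The median −log10 q of the highest promoter peak was 4.13 in replicate 1 and 6.94 in replicate 2 over the members that had one, and 6.97 and 12.5 over the coding genes that had one. The median member peak stood at percentile 25.4 and 27.4 of the coding genes with a promoter peak. Counts depended on the width of the promoter: with 500 bp on either side 5 members had a peak in both lists, against 28.5% of coding genes, and with 2 kb 13 had one, against 32.6%. The genes added with 2 kb were Foxa2, Foxh1, Foxo3, Sox18 and Sox6. The added peaks of Foxh1 and Sox6 lay within 1 kb of the TSS of another gene, Ppp1r16a and 1110004F10Rik respectively, and cannot be assigned to the members.

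**Figure D1:**
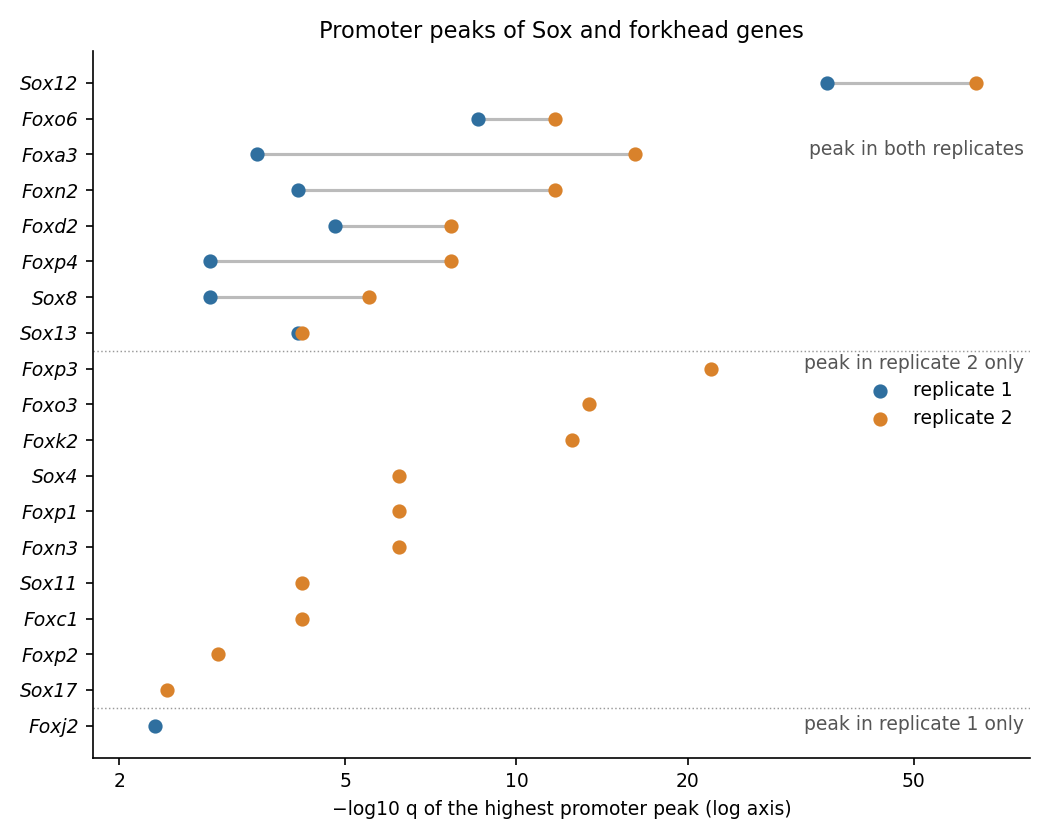
−log10 q of the highest promoter peak (log axis) of the 19 Sox and forkhead genes with a promoter peak, in replicate 1 (blue) and replicate 2 (orange); grey lines join the replicates of a gene. Sox12 stands at 35.2 and 64.5, above every other member in both lists, and all 8 genes with a peak in both lie higher in replicate 2.

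Sox12 held the highest promoter peak of the family in both lists. This gene (ENSMUSG00000051817.8, chr2:152393611-152398063, minus strand) encodes a SoxC protein, a group of transcriptional activators that also holds Sox4 and Sox11. Its −log10 q was 35.2 in the first list and 64.5 in the second, with a mean of 49.8 ± 20.7 (SD, n = 2). The summits rested on 47 tags (exact Poisson 95% interval 34.5 to 62.5) and 73 tags (57.2 to 91.8), where the interval covers counting error only. The fold was 11.9 and 16.3, a mean of 14.1 ± 3.16 (SD, n = 2). Sox12 was thus the only member past −log10 q of 10 in both lists, and it stood at percentile 96.8 and 96.4 of the promoter peaks of coding genes. The summits lay at −894 and −858 bp from the TSS, 36 bp apart, in peaks 1341 and 2227 bp wide. No TSS of another gene lay within 1 kb of them.

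Foxo6, a FOXO factor best known from the brain, came next (chr4:120267079-120287349, minus strand). Its −log10 q was 8.54 in replicate 1 and 11.7 in replicate 2, with 21 and 26 tags and a mean fold of 5.69 ± 0.368 (SD, n = 2). The summits lay at −586 and −698 bp. The intervals of the tags, 13.0 to 32.1 and 17.0 to 38.1, overlapped. Here and below, overlap of intervals is a description and not a test, and the difference between the replicates was not tested.

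Foxa3, a Foxa factor of liver and gut (chr7:19013284-19023538, minus strand), differed most between the lists among the members with a peak in both, apart from Sox12. Its −log10 q was 3.49 in replicate 1 and 16.1 in replicate 2, on 14 and 31 tags, with summits 2 bp apart at −697 and −699 bp. The intervals of these tags, 7.65 to 23.5 and 21.1 to 44.0, overlapped. The TSS of Sympk, which encodes a scaffold protein of mRNA 3′ end processing, lies within 1 kb of both summits. The peak therefore cannot be assigned to Foxa3 rather than to Sympk. The same held for Foxd2, where the second gene was Foxd2os, and for Sox8, where it was 2810468N07Rik. Among all coding genes with a peak in both lists, 37.0% in replicate 1 and 36.9% in replicate 2 had a TSS of another gene at the summit. Without such peaks, a restriction chosen after seeing the data, the count of members with a peak in both was 5 (Foxn2, Foxo6, Foxp4, Sox12 and Sox13), against 19.7% of coding genes.

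Foxn2, a forkhead gene of the N class on chr17:88440711-88490533, had its highest promoter peak at 4.13 in replicate 1 and 11.7 in replicate 2, with 15 and 26 tags. It was covered by several separate peaks rather than 1: summits at −0.361, 0.3 and 1.12 kb from the 5′ end in replicate 1 faced summits at −0.257, 0.147 and 1.06 kb in replicate 2. Foxd2, known from kidney development, read 4.80 and 7.67 with 16 and 21 tags. Foxp4, known from lung and gut development, read 2.88 and 7.67 with 13 and 21 tags, at −224 and −199 bp. These genes held more tags in replicate 2, but their intervals overlapped between the lists.

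Sox8 and Sox13 had the lowest mean −log10 q among the genes with a promoter peak in both lists. Sox8, a SoxE gene related to Sox9 and Sox10, read 2.88 in replicate 1 and 5.51 in replicate 2 on 13 and 18 tags. Sox13, a SoxD gene, read 4.13 and 4.19 on 15 and 16 tags, the closest agreement of any member (mean 4.16 ± 0.0447, SD, n = 2). The highest promoter peaks of all 8 genes overlapped between the lists, and each had a higher −log10 q in replicate 2. That direction belonged to the lists as a whole, since 92.9% of coding genes with a peak in both also had the higher value there. The median log2 of the fold in replicate 2 over that in replicate 1 was 0.37 for the 8 members and 0.53 for the coding genes.

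A promoter peak in replicate 2 alone was found for 10 members. The highest was at Foxp3, the regulator of regulatory T cells, with −log10 q of 22.0 on 37 tags. The TSSs of Ppp1r3f and of the noncoding gene Flicr lie within 1 kb of that summit, and the peak cannot be assigned to 1 of these genes. Foxo3, a FOXO factor held in the cytoplasm by AKT signalling, read 13.4 on 28 tags at −973 bp. Replicate 1 held an overlapping Foxo3 peak with −log10 q of 6.97 on 19 tags, whose summit at −1.04 kb fell just outside the promoter. Foxo3 thus differed between the lists by the position of its summit and not by the presence of a peak. Foxk2, a forkhead factor of metabolic genes, read 12.5 on 27 tags at −134 bp, with no promoter peak in replicate 1.

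The other 7 genes of this kind were lower. Sox4, Foxn3 and Foxp1 each read 6.21 on 19 tags, Sox11 and Foxc1 each read 4.19 on 16 tags, Foxp2 read 2.99 on 14 tags and Sox17, a SoxF factor of endoderm and endothelium, read 2.43 on 13 tags. These values lay in the lower part of the list, at percentile 23.7 or below of the promoter peaks of coding genes. Sox4 and Sox11, SoxC factors of progenitor and neuronal differentiation, had summits at 17 and −147 bp from their only TSS, at the gene start. Foxn3, Foxp2 and Sox17 had theirs near internal starts, 170.3, 295.8 and 4.25 kb inside the gene. Foxj2 was the single member with a promoter peak in replicate 1 alone, at 2.31 on 12 tags, at an internal start 6.48 kb from the 5′ end.

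By subfamily, the Foxp genes, whose proteins act mainly as repressors, were all covered in replicate 2. A promoter peak was found there for 4 of 4, against 44.4% of coding genes, and Foxp4 alone had one in replicate 1. The peak counted for Foxp3 also lay within 1 kb of starts of other genes and cannot be assigned to Foxp3. These genes also carry many annotated starts, with 22 for Foxp1, 16 for Foxp2, 7 for Foxp3 and 8 for Foxp4, against a median of 3 over coding genes and 1 over the members. The SoxC genes were also all covered, with 3 of 3 in replicate 2 and Sox12 alone in replicate 1. Within SoxC the order was Sox12 (64.5), Sox4 (6.21) and Sox11 (4.19) in replicate 2. The tags of Sox4 (19, interval 11.4 to 29.7) and Sox11 (16, interval 9.15 to 26.0) had overlapping intervals, whereas the interval of Sox12 lay above both. FOXO genes had a promoter peak in replicate 2 for Foxo3 and Foxo6 but not for Foxo1 or Foxo4. Among subfamilies of more than 1 gene, SoxB1, SoxB2, Foxb, Foxe, Foxf, Foxi and Foxr had no promoter peak in either list. Each of these holds only 2 or 3 genes. A promoter peak in at least 1 list was found for 45.9% of coding genes and 30.6% of the members.

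Among members listed for a known or reported role in the pituitary, Sox2, Sox3, Sox9, Sox5, Sox6, Foxo1, Foxd1, Foxe1, Foxj1 and Foxm1 had no promoter peak in either list, which held for 43 of the 62 members overall. Of all coding genes, 45.9% had a promoter peak in at least 1 list, and the others had none. Sox4, Sox11 and Foxp1 had one in replicate 2 as given above. At Sox2, whose protein marks pituitary progenitors, the nearest summits were 168 kb (replicate 1) and 192 kb (replicate 2) away. Sox1 and Sox3, the other SoxB1 genes, had their nearest summits at 277 and 277 kb and at 225 and 64.2 kb. Sox9, a SoxE gene of testis and cartilage, was the most distant, at 351 and 361 kb. No SoxB1 gene therefore had a peak within 20 kb in either list. Foxo1 (chr3, 84886 bp long) lay 37.6 and 60.1 kb from a summit. Its gene body did hold peaks, in an intron about 60.5 kb from the 5′ end, with −log10 q of 4.80 in replicate 1 and, in 2 peaks that overlap it, 1.91 and 4.19 in replicate 2. Both replicate 2 summits lay in sequence with more than 1 copy in the genome (3 and 9 places for the 50 bp at the summit), whereas the replicate 1 summit was single-copy. Foxm1, a factor of mitotic gene expression, had its nearest summit 7.05 kb from a TSS in replicate 2, at the start of Tulp3 and Gm26770.

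**Figure D2:**
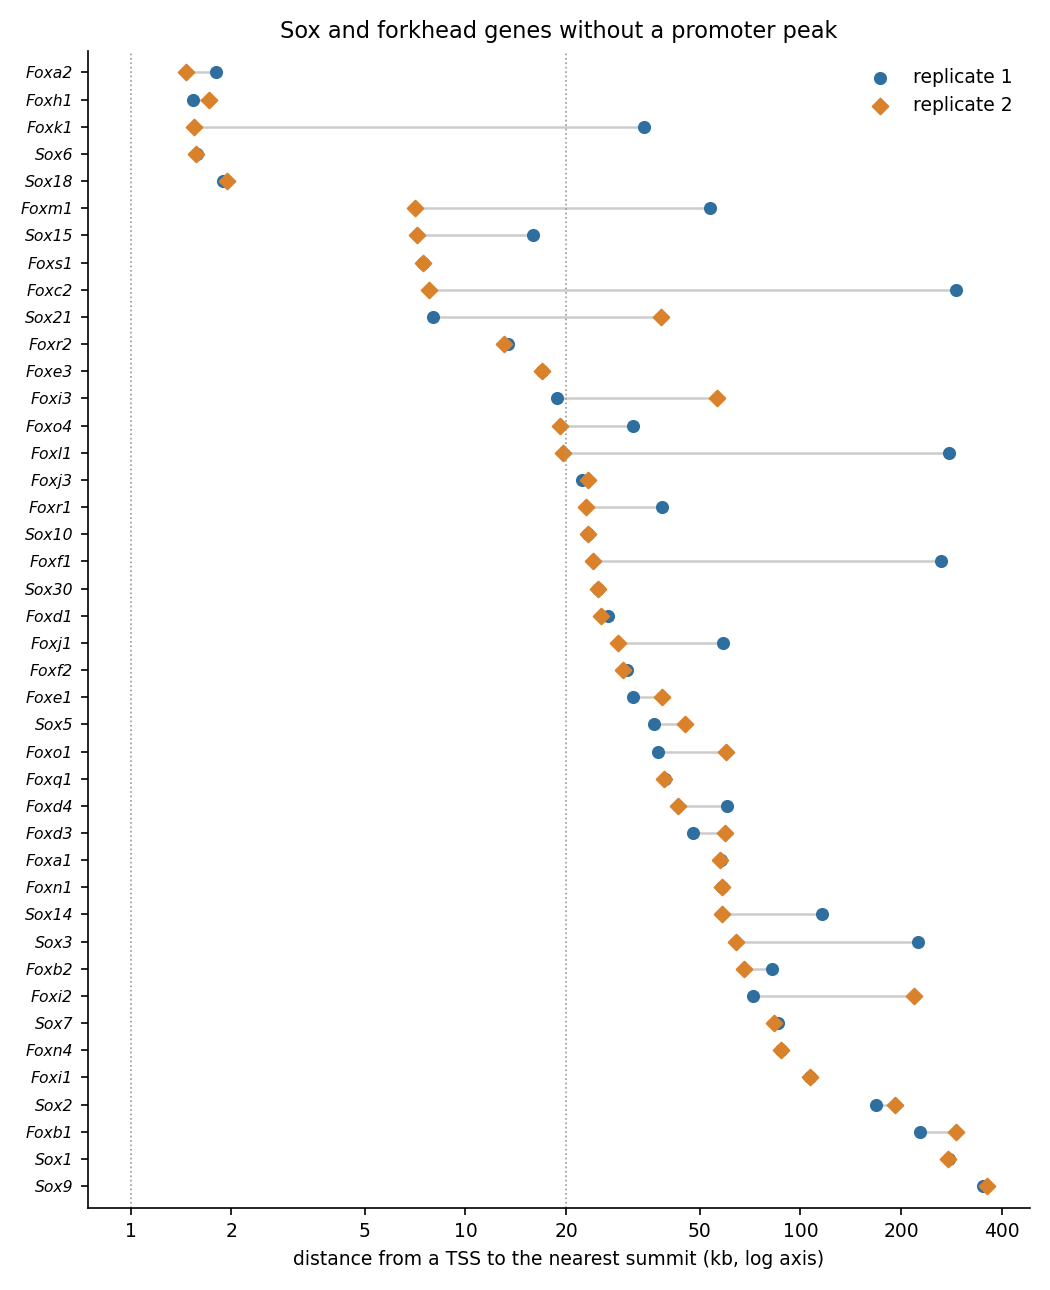
Distance from a TSS to the nearest summit (kb, log axis) for 42 of the 43 Sox and forkhead genes without a promoter peak, in replicate 1 (blue circles) and replicate 2 (orange diamonds); dotted lines mark 1 kb and 20 kb. Foxa2, Foxh1, Sox6 and Sox18 lie below 2 kb in both lists, whereas Sox2, Foxb1, Sox1 and Sox9 lie at 168 kb or more in both.

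Over all members without a promoter peak in a list, the median distance from a TSS to the nearest summit was 37.6 kb in replicate 1 and 29.5 kb in replicate 2. For the coding genes without one it was 26.9 and 21.5 kb. No peak at all in either list, in the gene body or within 20 kb, was found for 23 of 62 members (37.1%), against 19.6% of coding genes. Among them were Sox1, Sox2, Sox3, Sox7, Sox9, Sox14, Sox30, Foxa1, Foxb1, Foxb2, Foxd1, Foxd3, Foxd4, Foxe1, Foxf1, Foxf2, Foxi1, Foxi2, Foxj1, Foxn1, Foxn4 and Foxq1. This group holds regulators of neural fate (Sox1), of liver and gut (Foxa1), of cilia (Foxj1), of neural crest (Foxd3) and of the thymus (Foxn1).

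Most members had a CpG-rich 5′ end, with or without a promoter peak. A 5′ end was called CpG-rich when the 500 bp on either side had at least 50% G and C and an observed over expected CpG ratio of at least 0.6, a measure added after the peaks were seen. CpG-rich 5′ ends were found for 46 members, or 74.2%, against 44.4% of coding genes. Among these, 8 had a promoter peak in replicate 1 (17.4%, against 51.4% of CpG-rich coding genes), 17 in replicate 2 (37.0%, against 71.3%) and 7 in both (15.2%, against 49.9%). The gap to coding genes was therefore wider among CpG-rich genes than among all genes. Of the 16 members without such a 5′ end, 1 had a promoter peak in each list (6.25%, against 17.1% and 22.9%), and this was Foxa3. Of the 23 members with no peak in the window, 16 had a CpG-rich 5′ end, Sox1, Sox2, Sox3 and Sox9 among them. The median CpG ratio was 0.828 for the members with a promoter peak in both lists and 0.718 for those with none, and 0.552 over coding genes.

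**Figure D3:**
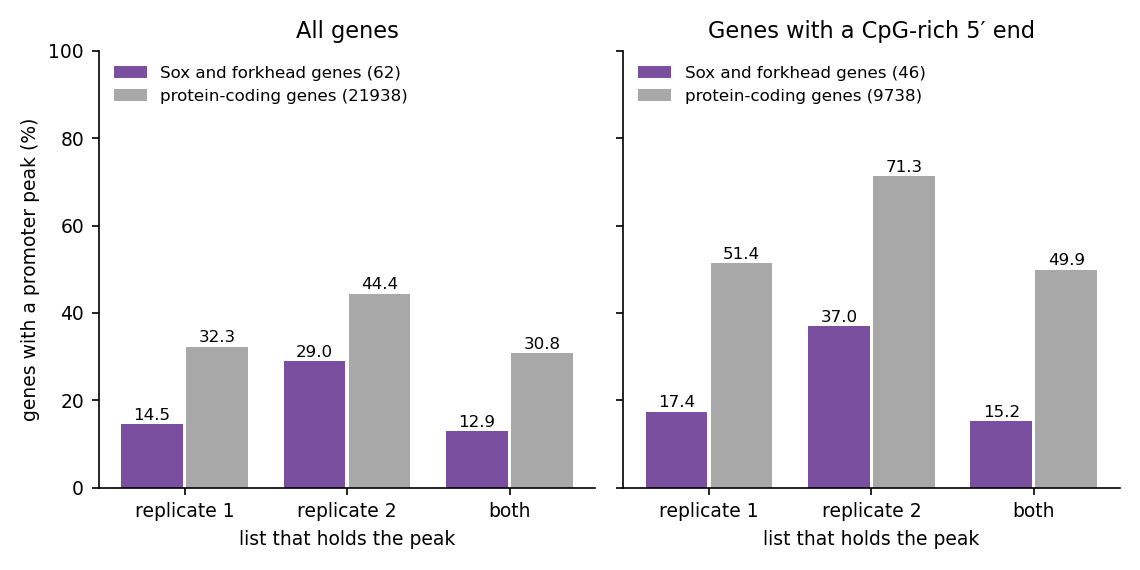
Share of genes (%) with a promoter peak in replicate 1, in replicate 2 and in both, for Sox and forkhead genes (purple) and protein-coding genes (grey), over all genes (left) and over genes with a CpG-rich 5′ end (right). The Sox and forkhead bars reach 14.5, 29.0 and 12.9% on the left and 17.4, 37.0 and 15.2% on the right, below the grey bar in each pair.

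The shares also moved with the number of annotated starts. By the definition used here, a gene with more starts has more sequence that counts as promoter. A single start was annotated for 33 members, of which 3 had a promoter peak in both lists and 6 in replicate 2, against 15.3% and 22.8% of coding genes with 1 start. Of the 29 members with 2 or more starts, 5 had a peak in both and 12 in replicate 2, against 35.2% and 50.6%. The part of this difference in the shares above was not tested. With only the 5′ end of each gene used, 8 members again had a promoter peak in both lists, whereas the share of coding genes was 27.8% in place of 30.8%.

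In the gene body or within 20 kb, promoters included, 30 members had a peak in replicate 1 (48.4%, against 67.0% of coding genes). In replicate 2 the count was 37 (59.7%, against 77.1%), and 28 had a peak in both lists (45.2%, against 63.7%). These windows held 74 distinct peaks in replicate 1 and 122 in replicate 2. Of them 11 and 23 lay in the member's own promoter, 15 and 24 within 1 kb of a TSS of another gene, 28 and 47 elsewhere in the gene body, and 20 and 28 elsewhere in the flank. The density was 11.7 and 19.3 peaks per Mb, against 21.6 and 25.5 in the windows of all coding genes. Counting only single-copy summits, those whose 50 bp occur at 1 place of the genome, it was 9.32 and 14.5 per Mb against 9.73 and 13.4. The lower density of the member windows thus lay in the multi-copy peaks: 79.7% and 75.4% of member peaks were single-copy, against 45.0% and 52.5% in the windows of coding genes. Overlap with a peak of the other replicate was found for 73.0% of the member peaks of replicate 1 and for 45.1% of those of replicate 2, and for 65.8% and 54.1% of the peaks in all coding windows.

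Of the member peaks shared by the lists, 17 had single-copy summits more than 1 kb from every annotated TSS in both lists, and these belonged to 12 members. In 16 of them the value was higher in replicate 2, and 3 reached −log10 q of 10 in both lists. The same counts were not made over all coding genes, so they cannot be read as a trait of the family. The 3 with the highest mean are printed, each as the replicate 2 summit with 50 bp on either side, on the strand of the gene, with the same motifs in capitals. They were chosen on their values.
Sox12 upstream peak, chr2:152406188-152406288, minus strand: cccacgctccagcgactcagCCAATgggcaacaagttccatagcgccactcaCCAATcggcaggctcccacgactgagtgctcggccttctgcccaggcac
Sox18 upstream peak, chr2:181675535-181675635, minus strand: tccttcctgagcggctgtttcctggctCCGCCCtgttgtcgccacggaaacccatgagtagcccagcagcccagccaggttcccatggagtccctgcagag
Sox5 intron peak, chr6:144638748-144638848, minus strand: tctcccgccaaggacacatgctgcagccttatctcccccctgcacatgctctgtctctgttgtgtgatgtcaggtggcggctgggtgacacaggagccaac
The Sox12 sequence held 2 CCAAT boxes and the Sox18 sequence 1 GC box, and the Sox5 sequence held none of the letters searched for.

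Upstream of Sox12, this intergenic peak lay at −8.21 kb from the 5′ end in replicate 1 and at −8.18 kb in replicate 2. Its −log10 q was 17.6 on 31 tags and 30.4 on 45 tags, a mean of 24.0 ± 9.04 (SD, n = 2). A further peak of the same locus, at −16.7 and −16.9 kb, read 6.22 and 29.3, and it lay at the start of Zcchc3 and 6820408C15Rik. That peak therefore cannot be assigned to Sox12, whereas the promoter peak and the nearer upstream peak lay away from starts of other genes in both lists.

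Sox18, a SoxF factor of lymphatic and blood vessels, had no promoter peak but 4 peaks in its window in replicate 1 and 5 in replicate 2, all single-copy. The one at −3.99 and −3.95 kb read 12.9 on 26 tags and 28.2 on 43 tags (mean 20.6 ± 10.9, SD, n = 2). The one at −1.89 and −1.94 kb read 10.2 on 23 tags and 19.0 on 34 tags. Both lay between genes, and the nearer of them counted as a promoter peak when the promoter was taken as 2 kb. At Sox8, Sox15, Foxr2 and Foxj2 the strongest shared peaks outside the promoter lay at starts of other genes, namely Lmf1 (10.2 and 24.0), Eif4a1 (11.1 and 30.4), Rragb (4.80 and 32.6) and Gm5112 (12.9 and 54.1). For these members the window held a peak that cannot be assigned to them.

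**Figure D4:**
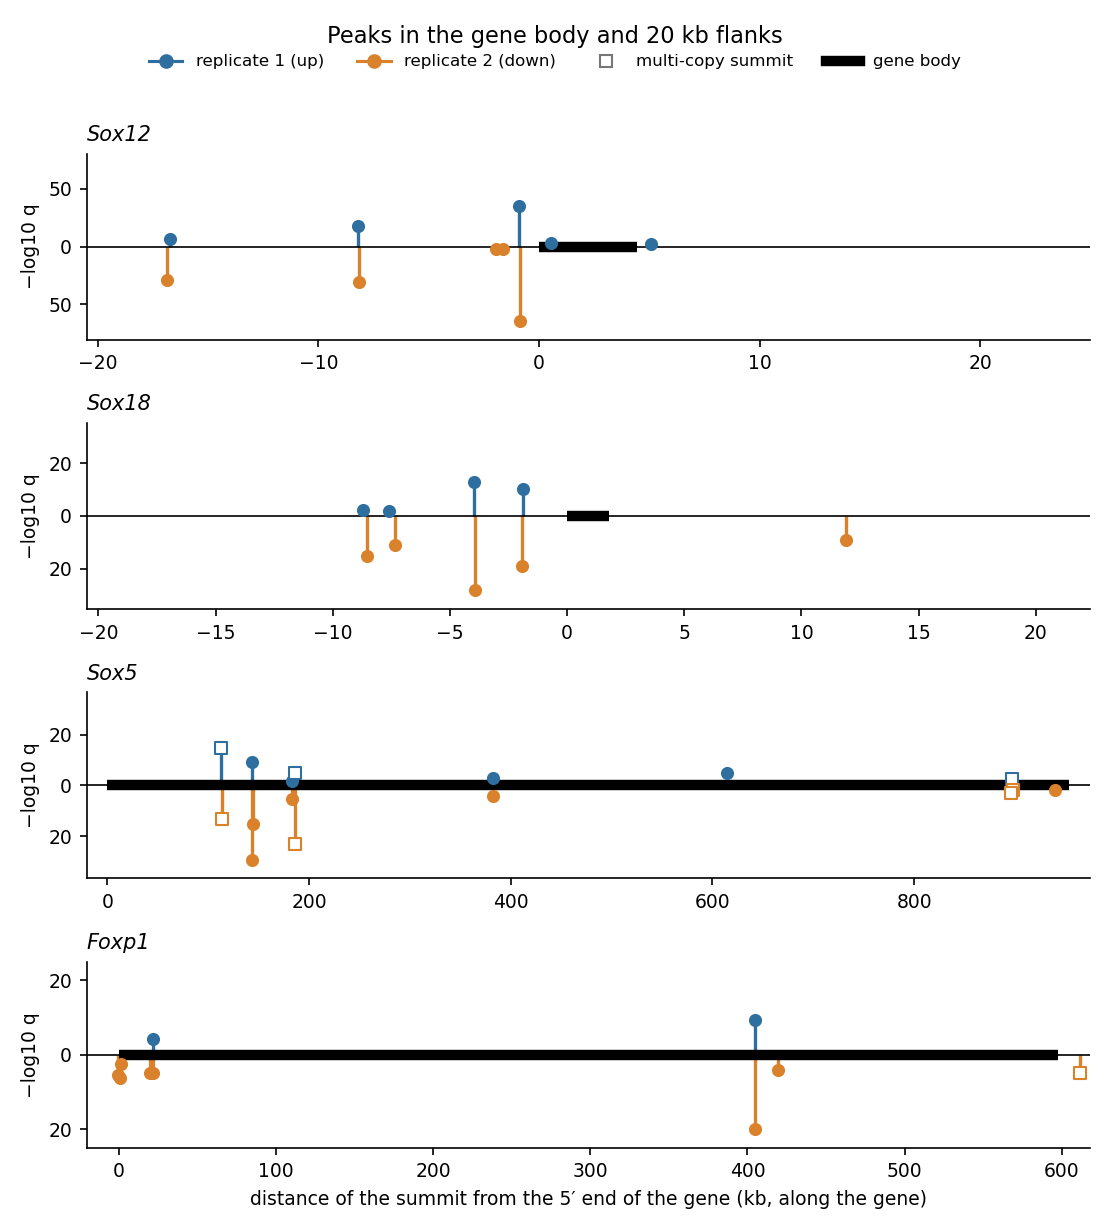
−log10 q of each peak against the distance of its summit from the 5′ end (kb, along the gene) at Sox12, Sox18, Sox5 and Foxp1, with replicate 1 drawn upward in blue, replicate 2 downward in orange, open squares for multi-copy summits and a black bar for the gene body. Sox12 and Sox18 show their high peaks upstream in both lists. Sox5 and Foxp1 show their highest single-copy peaks deep in the gene body, at 143 and 405 kb. In replicate 1 a multi-copy Sox5 peak at 113 kb was higher than the one at 143 kb.

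The 5 members over 100 kb, Sox5, Sox6, Foxp1, Foxp2 and Foxn3, accounted for 24 of 74 peaks in replicate 1 and 44 of 122 in replicate 2. Their windows made up 3.23 Mb of the 6.33 Mb of all members (51.1%). Peaks were thus sparser there, at 7.42 and 13.6 per Mb, than in the windows of the other members, at 16.1 and 25.2 per Mb. Sox5 (chr6, 953553 bp), a SoxD factor of cartilage and neuronal subtypes that lacks an activation domain of its own, had 7 and 9 peaks, of which 4 and 5 were single-copy, and none in a promoter. Its highest single-copy peak lay in an intron, 143 kb from the 5′ end in both lists. That peak read 9.36 on 22 tags in replicate 1 and 29.3 on 44 tags in replicate 2 (mean 19.3 ± 14.1, SD, n = 2). In replicate 1 a Sox5 peak at 113 kb, with 2 copies of its summit sequence, was higher, at 14.7 on 28 tags. The replicate 2 peak overlapping it read 13.4 on 28 tags, also with 2 copies at the Sox5 summit. Sox6, its close relative, had 9 and 10 peaks in its window, of which 3 and 1 were single-copy by the 50 bp at the summit. Its highest intronic peak read 11.1 and 11.7, and the 50 bp at its summits occurred at 1150 and 408 places.

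At Foxp1 (chr6:98925338-99522721), the highest peak lay in an intron 405 kb from the 5′ end and read 9.36 on 22 tags and 19.98 on 35 tags (mean 14.7 ± 7.51, SD, n = 2). In replicate 2 it was joined by 3 promoter peaks of 2.43, 5.51 and 6.21, and none of these was seen in replicate 1. Foxp2 had 4 peaks in replicate 1 and 13 in replicate 2. The pair at 381 kb, in an intron, was single-copy and read 5.50 and 6.93. Foxp4 had an intronic peak at 10.8 kb that was higher in replicate 1, with 15.7 on 29 tags against 7.67 on 21 tags, the reverse of the usual order of the lists. In Sox13, an intronic peak at 25.8 kb read 4.13 on 15 tags and 23.0 on 38 tags, well above the promoter peak of the gene in replicate 2.

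Genes outside the family gave a frame of reference from lists drawn up with earlier results of these data known. Of 11 HMG-box relatives, 6 had a promoter peak in both lists, against 30.8% of coding genes. A CpG-rich 5′ end was found for 10 of the 11, and the share was 49.9% over coding genes with such an end. The 6 were the architectural proteins Hmgb1, Hmgb2 and Hmgb3 and the repressors or regulators Cic, Bbx and Hbp1, with Cic at 56.7 and 103 and Bbx at 26.1 and 68.4. The other 5, Lef1, Tcf7, Tcf7l1 and Tcf7l2 of the Wnt pathway and the testis determinant Sry, had none in either list. Of 8 regulators of FOXO factors, 3 had a promoter peak in replicate 1, 5 in replicate 2 and 3 in both. Over all coding genes these shares were 32.3%, 44.4% and 30.8%, and with 8 genes a single gene moves the share by many percent. Pdpk1, the kinase that activates AKT, read 11.1 and 19.98. The 14-3-3 gene Ywhaz, whose protein holds FOXO factors in the cytoplasm, read 3.49 and 25.1, and Pik3ca, the catalytic subunit of PI3 kinase, read 7.74 and 23.0. Akt2 (7.67) and Sgk1 (4.84) had a peak in replicate 2 alone, and Akt1, Sirt1 and Ep300 had none.

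The letters of the motifs were counted within 100 bp on either side of each summit. No motif searched for contains another, although neighbouring GC boxes can overlap. The forkhead motif was found at 0 of 9 promoter summits of members in replicate 1 and 0 of 18 in replicate 2, against 1.40% and 1.26% of the promoter summits of coding genes. The SOX motif was found at 0 of 9 and at 1 of 18, that of Foxo3, against 11.2% and 10.3%. A GC box was found at 7 of 9 and 10 of 18 (77.8% and 55.6%), against 49.4% and 51.7%, and a CCAAT box at 1 of 9 and 6 of 18, against 36.5% and 34.5%. The EGR motif occurred at 1 member in each list, Foxj2 in replicate 1 and Foxp3 in replicate 2, against 0.861% and 1.02% of the promoter summits of coding genes. Neither CRE nor AP1 letters were found at a promoter summit of a member, against 2.92% and 2.36% of the promoter summits of coding genes in replicate 1. At single-copy member peaks outside the own promoter, the SOX motif was found in 9 of 48 windows in replicate 1 and 13 of 69 in replicate 2, 18.8% each, against 18.2% and 17.2% of the single-copy peaks in coding windows. The SOX shares outside promoters stood close to the background. With so few promoter summits, a single gene moves the share by several percent, and a match of letters does not show that a factor bound.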

How the data were processed

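ATAC-seq peak lists of 2 replicate samples of GnRH-treated LβT2 cells were analysed, with 1 condition and no control. Per the study's methods and processing notes, the authors aligned paired reads with Bowtie2 to the GRCm38 (mm10) genome, discarded duplicates and called the peaks of each replicate in MACS2. The methods name the fly preset for genome size and an extension of 200 bp, which set the background that each fold and q refers to. The values deposited by the authors were a score (the whole part of 10 times −log10 q), the ratio of tags to background at the summit (fold enrichment), −log10 p and −log10 q. Read totals were not analysed here, and a few genes of the lists are not reported here.

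From these lists, tags at each summit were solved from fold and p, with exact Poisson 95% intervals that cover counting error only, since PCR reads without molecular identifiers are not independent molecules. Summits were assigned to GENCODE vM21 genes in the order own promoter, TSS of another gene, gene body, flank of 20 kb. Peaks overlapping by at least 1 bp were called shared. Copies of the 50 bp at a summit were counted over the assembled chromosomes and the mitochondrial genome on both strands. Computation used numba 0.67.0, numpy 2.4.6, scipy 1.17.1 and pandas 2.3.3 under Python 3.11.15, with figures by matplotlib 3.10.9, and the solver, the assignment and the copy count were tested on simulated data.

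Members, lists, motifs and the rule for named genes were chosen with earlier results of these data known. Named were the 8 members with a promoter peak in both lists, those with one in 1 list only (Foxj2 was added to the 10 the rule allows), members with a pituitary role, the 8 strongest shared single-copy peaks outside promoters, and the 23 members without a peak. Other peaks and genes named, such as those of Foxp1, Foxp2, Foxp4, Sox6, Sox13 and Sox18, were singled out after their values were seen. Values are per replicate or mean ± SD (n = 2). No groups could be compared, so no test was run. Alternatives concerned promoter width, TSS set, threshold on q, copy number, window, overlap rule and leaving out a replicate.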

Additional observations from a re-analysis of the deposited data

How the results depend on the processing

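The number of members with a promoter peak in both lists was 8. It was 5 with promoters of 500 bp on either side, 13 with 2 kb, 2 at −log10 q of at least 5 and 1 at 10, and 5 without peaks at a TSS of another gene, an alternative chosen after seeing the data. With 1 replicate left out it was 9 to 18. The share of coding genes, 30.8%, was 28.5% with 500 bp, 32.6% with 2 kb, 20.1% at −log10 q of at least 5, 10.8% at 10, 19.7% without peaks at a TSS of another gene and 49.9% among genes with a CpG-rich 5′ end, the last 2 also chosen after seeing the data, and 32.3% to 44.4% with 1 replicate left out. Members with a peak in the gene body or within 20 kb in both lists, 28, numbered 16 at −log10 q of at least 5, 9 at 10, 22 with 10 kb in place of 20 kb and 40 with 50 kb. The share of coding genes, 63.7% at the main setting, was not computed for these alternatives. Whether the gap to coding genes holds under them is therefore not known. The share of single-copy member peaks, 77.6%, was 87.4% and 86.8% at these thresholds and 91.0% with 200 bp at the summit. The cause of these shifts was not tested, beyond fewer peaks, or more or less sequence, entering by construction. The median −log10 q of the highest promoter peak and the share of member peaks found in the other list moved by less than the spread between the replicates under their alternatives that kept both replicates (5 and 7). Leaving 1 out cannot move such a mean of 2 by more than that spread, so it was not counted. No paired analysis was possible because there is 1 group. Depth and the background of the peak calling limit all counts: peaks near the lowest 10 or 11 tags may be missed in either list, and an SD from 2 replicates is imprecise.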
